A study of Mus musculus with 6 samples.

Results

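Cholesterol and fatty acid synthesis was followed through 34 genes in mouse embryonic stem cells with E518K DGCR8, no DGCR8 or wild-type DGCR8. The genes were listed by symbol from what is known of the pathways, and all 34 were found among the 21978 entries of the count table. The sterol branch holds 22 of them, which are 18 enzymes and the regulators and carriers Insig1, Scap, Srebf2 and Stard4. The fatty acid branch holds 12. All 34 passed the filter on low counts, which left 16498 tested genes.

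DGCR8 is the RNA-binding partner of the nuclease Drosha in the Microprocessor, which cuts miRNA precursors out of primary transcripts, and E518K is a substitution in DGCR8 found in Wilms tumors. The study set 3 groups side by side, with 2 libraries each. The E518K cells were labelled DGCR8 E518K/E518K and transfected with pSB ET iE-FlagDGCR8-E518K plus the transposase plasmid pCMV(CAT)-SB100X (clones 8 and 15). The KO cells were labelled DGCR8 -/- and not transfected (libraries 1 and 3). The wt cells were labelled DGCR8 wt/wt and transfected with pSB ET iE-FlagDGCR8-wt plus the same transposase plasmid (clones 12 and 16). Cells of all 3 groups, KO included, had 300 ng/mL doxycycline for 48 hours, carried the same strain label (NBA1-19349, Novus Biochemicals) and grew without feeder cells with LIF, CHIR99021, PD0325901 and calf serum. The transfected groups thus carry an inducible transgene in single clones, and since the labels do not say which cells were transfected, a part of endogenous DGCR8 in them cannot be told apart. Both KO titles carry the clone number 261, although the series text speaks of independent clones, so the spread between the KO libraries may be technical.

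Mammalian cells build cholesterol from acetyl-CoA through mevalonate, farnesyl diphosphate and squalene, and fatty acids from acetyl-CoA through malonyl-CoA. The genes of both branches are under the transcription factors SREBP1 and SREBP2, encoded by Srebf1 and Srebf2. SCAP carries the SREBP precursors from the endoplasmic reticulum to the Golgi for cleavage when sterols are low, and INSIG proteins hold the complex back when sterols are high. In embryonic stem cells, as in other dividing cells, both routes supply membrane lipids.

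The 6 libraries held 73642784 to 75121971 counts each. Dgcr8 itself had 821 and 420 CPM (counts per 1000000) in E518K libraries 8 and 15, 40.0 and 37.1 CPM in KO libraries 1 and 3, and 196 and 992 CPM in wt libraries 12 and 16. The KO libraries differed least from each other, with a common biological coefficient of variation of 9.19% in E518K, 2.6% in KO and 20.6% in wt. Summed markers of pluripotent stem cells were at 4847 and 4856 CPM in E518K, 4390 and 4328 CPM in KO and 5279 and 4771 CPM in wt. Of the 8, 6 were lower in KO than in wt at an adjusted p under 0.05, and Tfcp2l1 was higher (log2 fold change 0.19). Of all tested genes, 29.7% were lower and 27.4% higher. In E518K against wt, Zfp42 was higher (0.22) and Klf4 (-0.61) and Tfcp2l1 (-0.35) were lower. Of all tested genes, 11.3% were higher and 12.5% lower there. Summed markers of other cell types were low in every library, at 45.1 to 53.5 CPM for trophectoderm (5 genes), 1.34 to 2.12 CPM for primitive and visceral endoderm (5 genes) and 2.50 to 4.98 CPM for fibroblast feeder cells (4 genes). Within trophectoderm the sum covered opposite changes, since in KO against wt Krt8 was higher (log2 fold change 1.72) and Ascl2 (-3.21), Krt18 (-1.26) and Eomes (-0.95) were lower, and in E518K against wt Cdx2 was higher (1.75) and Krt18 (-1.27) and Ascl2 (-1.10) were lower. No listed marker was at 0 in every library, and the part of these shifts in the lipid genes was not tested.

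Most genes of the sterol branch were lower in KO than in wt, and E518K lay between. Summed over the 22 genes, the sterol branch stood at 1959 and 1961 CPM in E518K, 1696 and 1645 CPM in KO and 2468 and 2181 CPM in wt, so that the 3 groups did not overlap. Against wt, KO had 16 sterol genes lower, 4 higher and 2 not called at an adjusted p under 0.05 (edgeR quasi-likelihood test, Benjamini-Hochberg over all tested genes). Of all tested genes, 29.7% were lower and 27.4% higher. The median log2 fold change was -0.76 over the sterol genes and -0.02 over all tested genes.

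Against wt, E518K had 8 sterol genes lower, 2 higher and 12 not called, where 12.5% of all tested genes were lower in E518K and 11.3% were higher. The median sterol gene was at -0.33, against -0.02 over all tested genes. This count depended on single libraries, since leaving out E518K clone 8 gave 4, E518K clone 15 gave 2, either KO library gave 5 and wt clone 16 gave 17. Against KO, E518K had 13 sterol genes higher, 2 lower and 7 not called, where 22% of all tested genes were higher in E518K and 19.8% were lower. Leaving out either E518K clone or KO library 1 brought that count to 8, and leaving out KO library 3 brought it to 6.

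Both E518K libraries lay between the KO libraries and the wt libraries for 21 of the 34 genes, which were 15 of 22 sterol and 6 of 12 fatty acid genes. Of all tested genes, 28.5% had this arrangement. For 19 of the 21 the order was KO lowest, E518K in the middle and wt highest, and Ebp and Acss2 had the opposite order. This arrangement is not a call. Of the 21 genes, Fdft1, Srebf2, Stard4, Srebf1, Ebp and Acss2 were not called between E518K and KO. Acat2, Mvk, Pmvk, Fdps, Fdft1, Sqle, Tm7sf2, Srebf1 and Acss2 were not called between E518K and wt. The KO and E518K comparisons with wt share the wt libraries, so their values are not independent of each other.

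**Figure D1:**
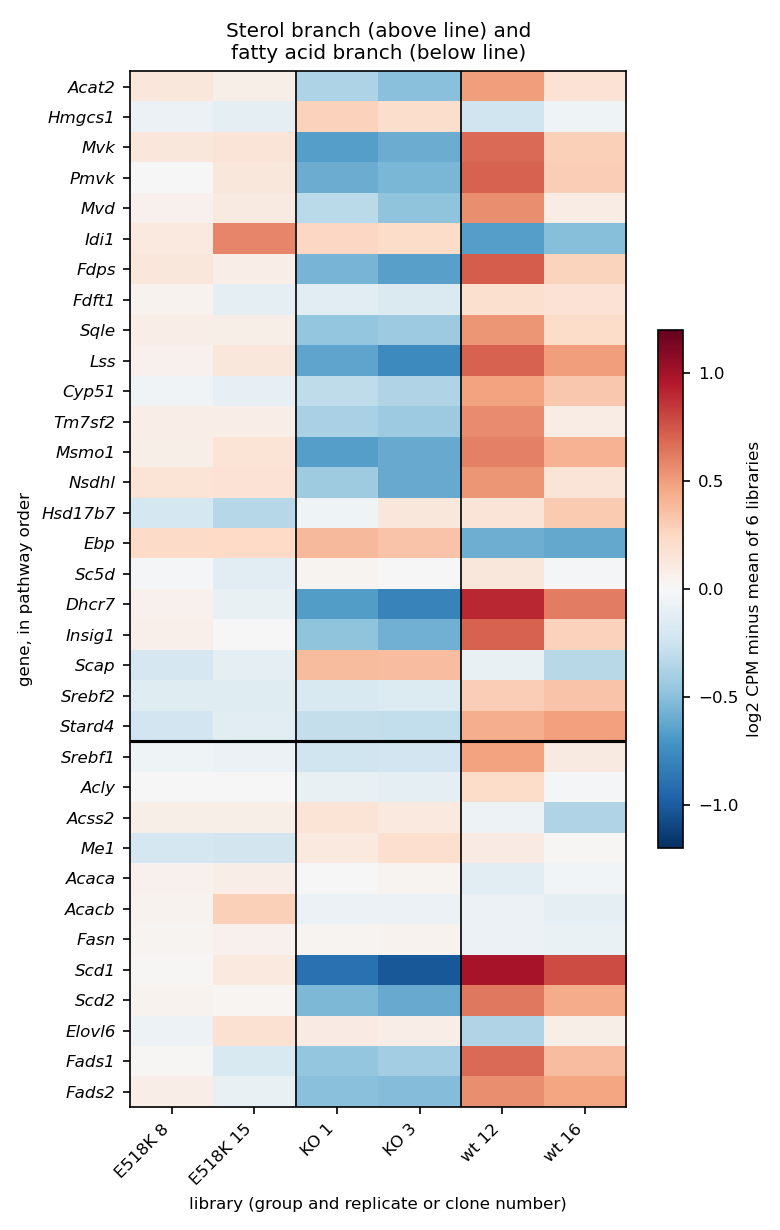
Log2 CPM of the 34 genes in each library, as the difference from the gene's mean over the 6 libraries (colour), with genes in pathway order down the page and libraries across. Most sterol genes and the 4 desaturases are pale in E518K, blue in KO and red in wt, while Hmgcs1, Idi1, Ebp and Scap are not.

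The wt clones also differed from each other in these genes. Clone 12 was above clone 16 in 17 of 22 sterol genes and in 10 of 12 fatty acid genes, while this held for 49.7% of all tested genes. Without wt clone 12, the sterol median was -0.15 for E518K against wt and -0.63 for KO against wt. Without wt clone 16 these medians were -0.47 and -0.95. The clone with the lower Dgcr8 level among the wt clones was clone 12, and the part of that level in the difference was not tested.

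The enzymes that turn acetyl-CoA into farnesyl diphosphate fell in KO at 5 of 7 steps and rose at 2, beside 29.7% of all tested genes lower and 27.4% higher. Fdps, which makes farnesyl diphosphate, had 149 and 143 CPM in E518K, 92.2 and 86.0 CPM in KO and 224 and 163 CPM in wt. Its groups did not overlap, and its log2 fold change was -1.12 ± 0.14 (SE, adjusted p = 5.66e-04) for KO against wt. E518K lay 0.71 ± 0.14 above KO (adjusted p = 0.00571) and, at -0.41 ± 0.14, did not pass the test against wt (adjusted p = 0.0698).

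Mvk, mevalonate kinase, had 29.0 and 29.4 CPM in E518K, 16.7 and 17.6 CPM in KO and 42.5 and 32.3 CPM in wt. KO was 2.18-fold below wt (adjusted p = 4.77e-04), and E518K was 1.70-fold above KO (adjusted p = 0.00368). Pmvk and Mvd, the next kinase and the decarboxylase, and Acat2, the thiolase that opens the route, had the same pattern of calls, with log2 fold changes of -0.74 to -1.09 for KO against wt and 0.48 to 0.64 for E518K against KO. Against wt, E518K did not pass the test for any of these 5 genes, at log2 fold changes of -0.24 to -0.45. Pmvk and Fdps passed it with DESeq2 (adjusted p = 0.0243 and 0.0275) and with upper-quartile scaling (0.0340 and 0.0417). Without wt clone 16 the log2 fold changes of the 5 genes were -0.40 to -0.64. Their highest values under any alternative were -0.23 to -0.0084. Against KO, the E518K call was lost without clone 8 for Fdps (adjusted p = 0.0530) and Acat2 (0.0630), without KO library 3 for Acat2 (0.0642), and when any single E518K or KO library was left out for Mvd (0.0899 to 0.1915), and without E518K clone 15 or either KO library for Pmvk (0.0636 to 0.0772). Acat2 has a close relative, Acat3, with 7498 to 9180 counts per library, and no source used here gives how reads matching both genes were assigned.

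Hmgcs1 and Idi1 moved the other way within the same stretch of the pathway. Hmgcs1, the synthase that makes HMG-CoA, had 226 and 219 CPM in E518K, 288 and 275 CPM in KO and 201 and 230 CPM in wt. It rose in KO by 0.39 ± 0.08 on the log2 scale against wt (adjusted p = 0.00448), while the E518K and wt libraries overlapped. Idi1, the isomerase that interconverts the isoprene units, had 102 and 141 CPM in E518K, 111 and 109 CPM in KO and 59.4 and 66.0 CPM in wt. All 4 E518K and KO libraries were above both wt libraries, with log2 fold changes against wt of 0.96 ± 0.14 for E518K (adjusted p = 0.00579) and 0.81 ± 0.14 for KO (adjusted p = 0.00261).

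Promoter sequences are shown for sterol genes that moved in opposite directions, Hmgcs1 and Idi1, which rose in KO, and Mvk and Msmo1, which fell. Each runs from 250 bases before to 50 bases after the RefSeq start (GRCm38.p6). Capitals mark the sterol regulatory element, TCACNCCAC, and the NF-Y box, CCAAT, on either strand, so that CCAAT on the other strand reads ATTGG. The promoter of Hmgcs1 lies at chr13:119690101-119690400 (plus strand), that of Idi1 at chr13:8885356-8885655 (plus strand), that of Mvk at chr5:114444019-114444318 (plus strand) and that of Msmo1 at chr8:64733529-64733828 (minus strand).
Hmgcs1: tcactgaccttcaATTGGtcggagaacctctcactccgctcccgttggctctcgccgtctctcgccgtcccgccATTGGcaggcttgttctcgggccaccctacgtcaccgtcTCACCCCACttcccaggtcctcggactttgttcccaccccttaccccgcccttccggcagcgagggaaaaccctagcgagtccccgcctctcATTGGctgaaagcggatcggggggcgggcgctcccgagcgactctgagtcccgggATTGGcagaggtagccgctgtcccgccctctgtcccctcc
Idi1: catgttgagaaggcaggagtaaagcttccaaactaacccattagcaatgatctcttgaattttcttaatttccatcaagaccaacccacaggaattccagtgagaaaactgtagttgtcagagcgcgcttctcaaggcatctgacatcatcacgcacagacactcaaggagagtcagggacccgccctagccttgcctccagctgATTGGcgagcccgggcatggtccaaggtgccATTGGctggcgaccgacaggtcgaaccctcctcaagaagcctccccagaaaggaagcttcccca
Mvk: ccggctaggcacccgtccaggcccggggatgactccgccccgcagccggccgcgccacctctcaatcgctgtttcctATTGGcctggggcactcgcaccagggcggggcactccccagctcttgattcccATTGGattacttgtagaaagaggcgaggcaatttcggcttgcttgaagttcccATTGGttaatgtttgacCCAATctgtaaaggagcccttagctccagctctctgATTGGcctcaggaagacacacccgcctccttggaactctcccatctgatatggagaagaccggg
Msmo1: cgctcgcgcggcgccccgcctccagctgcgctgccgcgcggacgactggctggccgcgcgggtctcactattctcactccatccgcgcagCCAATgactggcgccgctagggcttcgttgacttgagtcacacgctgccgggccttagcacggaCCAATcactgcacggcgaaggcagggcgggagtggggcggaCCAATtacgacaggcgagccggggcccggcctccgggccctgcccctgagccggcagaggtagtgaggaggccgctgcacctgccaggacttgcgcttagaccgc
Hmgcs1 held 4 NF-Y boxes and a sterol regulatory element, Idi1 held 2 NF-Y boxes, Mvk held 5 and Msmo1 held 3. RefSeq promoters were found for 27 of the 34 genes. The NF-Y box was in 22 of these 27 (81.5%), where 41.1% of 27025 genes with a promoter in the same table held one. By branch it was in 16 of 18 sterol genes (88.9%) and 6 of 9 fatty acid genes (66.7%). The sterol regulatory element in this spelling was in 1 of 27 (3.70%), against 1.44% of all genes, and the E-box CACGTG in 5 of 27 (18.5%), against 8.09%. All 3 motifs were searched on both strands, and a match is a description of the letters only. In the printed promoters the NF-Y box was present in genes of both directions.

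From squalene onward, 8 of 11 enzymes fell in KO against wt, Ebp rose, and Hsd17b7 and Sc5d were not called. Of all tested genes, 29.7% were lower and 27.4% higher in KO. Dhcr7, which makes cholesterol from 7-dehydrocholesterol at the end of the pathway, had the largest change of the sterol branch. It had 63.8 and 58.0 CPM in E518K, 38.7 and 35.4 CPM in KO and 115 and 94.1 CPM in wt. The groups stood clear of each other, with KO 2.82-fold below wt (adjusted p = 8.60e-05), E518K 1.72-fold below wt (adjusted p = 0.00478) and E518K 1.64-fold above KO (adjusted p = 0.00233). Without E518K clone 15, the difference between E518K and wt had an adjusted p of 0.0682.

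Lss, the cyclase that folds squalene epoxide into lanosterol, had 61.3 and 64.9 CPM in E518K, 38.2 and 34.8 CPM in KO and 96.2 and 83.4 CPM in wt. Its difference between E518K and KO was the largest of the sterol genes, at 0.79 ± 0.09 on the log2 scale (adjusted p = 8.58e-04). Msmo1, the oxidase that starts removal of methyl groups from the ring, had 68.4 and 73.2 CPM in E518K, 41.3 and 42.9 CPM in KO and 99.2 and 86.8 CPM in wt. Both genes passed the test in all 3 comparisons, as did Cyp51, the demethylase that acts on lanosterol. Against wt, the E518K calls were lost without clone 15 for Lss (adjusted p = 0.0777), Msmo1 (0.0931) and Cyp51 (0.0795), without clone 8 for Lss (0.0756) and Msmo1 (0.107), and without KO library 1 or 3 for Msmo1 (0.0541 and 0.0542). Against KO, the call of Cyp51 was lost when any single E518K or KO library was left out (0.0674 to 0.188).

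Sqle, the epoxidase that is a slow step of the route, had 171 and 169 CPM in E518K, 117 and 120 CPM in KO and 232 and 188 CPM in wt. It fell 1.78-fold in KO (adjusted p = 4.74e-04) and was 1.44-fold higher in E518K than in KO (adjusted p = 0.00508). Nsdhl, a dehydrogenase of the same methyl removal, and the sterol reductase gene Tm7sf2 had the same calls, with log2 fold changes of -0.86 ± 0.13 and -0.76 ± 0.14 for KO against wt. Their calls between E518K and KO were lost for Nsdhl without KO library 3 (adjusted p = 0.0528) and for Tm7sf2 when any single E518K or KO library was left out (0.103 to 0.128). Fdft1, squalene synthase, had the smallest called fall in KO, at -0.34 ± 0.07 (adjusted p = 0.00564), and that call was lost without KO library 3 (adjusted p = 0.0654).

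Ebp, the sterol isomerase late in the pathway, had 71.6 and 72.3 CPM in E518K, 79.9 and 77.6 CPM in KO and 40.7 and 40.0 CPM in wt. Its wt libraries were the lowest, and both other groups were near each other, with log2 fold changes against wt of 0.83 ± 0.06 for E518K (adjusted p = 8.93e-04) and 0.96 ± 0.06 for KO (adjusted p = 5.75e-05). Between E518K and KO it was not called (-0.13 ± 0.06, adjusted p = 0.138). Limma on TPM (-0.235 and -0.239, adjusted p = 0.026 and 0.027) and only the 4 libraries compared (-0.13, 0.042) did call Ebp lower in E518K than in KO. Hsd17b7, a ketosteroid reductase, was called between E518K and wt and in no other comparison of the main tests, at -0.51 ± 0.13 (adjusted p = 0.0313). That call was lost when any single E518K or KO library was left out. Hsd17b7 had 9.38 and 8.56 CPM in E518K, 10.4 and 11.9 CPM in KO and 12.1 and 13.5 CPM in wt. With only the 4 libraries compared, E518K was not called against wt (adjusted p = 0.0798) and was called below KO (-0.316, adjusted p = 0.0341). Sc5d, a desaturase of the sterol ring, had the smallest difference of the sterol branch between KO and wt, at -0.05 ± 0.09 (adjusted p = 0.681), with 26.6 and 24.4 CPM in E518K, 27.5 and 26.8 CPM in KO and 29.5 and 26.6 CPM in wt.

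**Figure D2:**
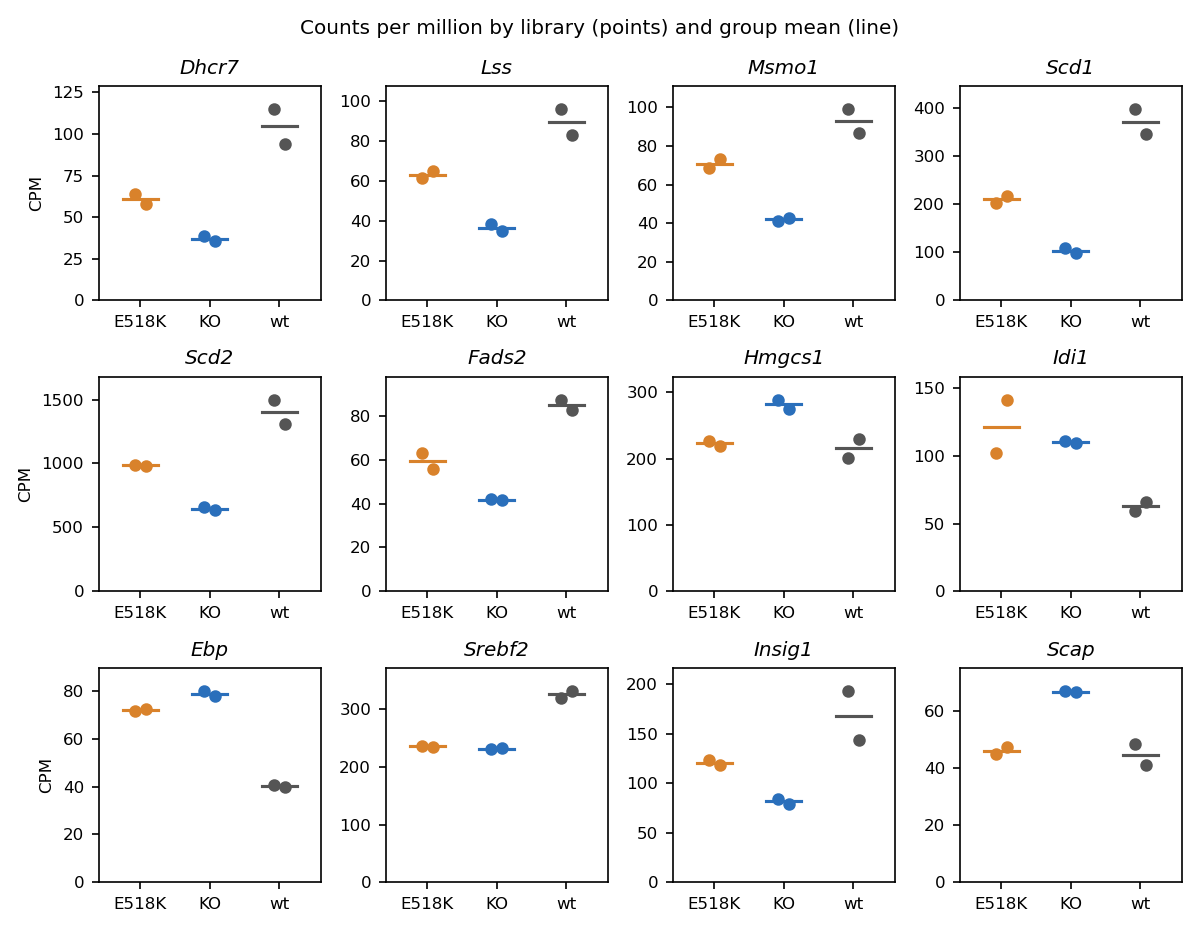
CPM of 12 genes in each library (points, 2 per group) with the group mean (line), on linear axes from 0. Dhcr7, Lss, Msmo1, Scd1, Scd2 and Fads2 have E518K between KO and wt, Srebf2 has E518K and KO together below wt, and Ebp and Idi1 have them together above wt.

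Among the regulators, Srebf2 had 237 and 236 CPM in E518K, 231 and 233 CPM in KO and 320 and 332 CPM in wt. E518K and KO were near each other and both lay below wt, with log2 fold changes of -0.46 ± 0.06 for E518K (adjusted p = 0.00300) and -0.49 ± 0.06 for KO (adjusted p = 3.90e-04). The difference between E518K and KO was the smallest of the sterol branch, at 0.03 ± 0.06 (adjusted p = 0.736). Stard4, a carrier that moves cholesterol between membranes, had the same calls, with 28.1 and 30.2 CPM in E518K, 27.0 and 26.9 CPM in KO and 44.7 and 46.4 CPM in wt.

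Insig1 had 124 and 118 CPM in E518K, 84.5 and 79.4 CPM in KO and 193 and 143 CPM in wt. It followed the graded order of most enzymes, with log2 fold changes of -0.48 ± 0.13 for E518K against wt (adjusted p = 0.0372), -1.04 ± 0.13 for KO against wt (adjusted p = 6.30e-04) and 0.56 ± 0.13 for E518K against KO (adjusted p = 0.0126). When any 1 of the 4 E518K and KO libraries was left out, Insig1 was not called in E518K against either group (adjusted p of 0.0530 to 0.2245). Scap had 44.9 and 47.5 CPM in E518K, 67.1 and 66.6 CPM in KO and 48.5 and 41.0 CPM in wt. KO stood alone above the other 4 libraries, by 0.58 ± 0.09 against wt (adjusted p = 0.00174), while E518K and wt overlapped at a difference of 0.05 ± 0.09 (adjusted p = 0.748).

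Srebf2 carries the miR-33 hairpin in an intron on its own strand, at chr15:82198122-82198190 in GRCm38, and the counted reads span introns. Mature miRNAs were not measured in these libraries. The miR-33 products and a pair of arms with a shared seed from hairpins in other genes of the list are printed from RefSeq, with the seed (bases 2 to 8) in capitals, because they lie inside genes whose mRNA is described here.
mmu-miR-33-5p: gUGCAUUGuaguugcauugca
mmu-miR-33-3p: cAAUGUUUccacagugcaucac
mmu-miR-6922-5p: uGUGGGAGgggacuguagagagg
mmu-miR-6993-5p: aGUGGGAGaaacgggugucuguc
Mir6922 lies over an exon of Srebf1 and Mir6993 in an intron of Fads1, and their printed arms share the seed GUGGGAG. Mir6921 (Srebf1), Mir7116 (Acly) and Mir5114 (Scd2) are the other hairpins within the 34 genes, all on the strand of their host.

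In the fatty acid branch all 4 desaturases changed, while 6 of the 7 genes that supply precursors or build the chain were not called between KO and wt. Summed over 12 genes, the branch stood at 3353 and 3393 CPM in E518K, 2874 and 2831 CPM in KO and 4181 and 3802 CPM in wt. Against wt, KO had 5 genes lower, 1 higher and 6 not called, and E518K had 5 lower and 7 not called. Of all tested genes, 29.7% were lower and 27.4% higher in KO, and 12.5% were lower and 11.3% higher in E518K, so the number called in KO was not above that background. Against KO, E518K had 4 higher, 1 lower and 7 not called, beside 22% of all tested genes higher and 19.8% lower. The median log2 fold changes were -0.10 for KO against wt, -0.19 for E518K against wt and 0.14 for E518K against KO. Without wt clone 12 they were -0.082 for E518K against wt and -0.039 for KO against wt, without wt clone 16 KO against wt was at -0.168, and limma on TPM gave 0.030 and 0.031 for E518K against KO. Without E518K clone 15, the count lower in E518K than in wt was 1.

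All 4 desaturases, Scd1, Scd2, Fads1 and Fads2, passed the test in all 3 comparisons. Scd1 puts the double bond into stearic acid and had the largest change of the 34 genes. It had 203 and 217 CPM in E518K, 108 and 99.2 CPM in KO and 397 and 345 CPM in wt. The groups were far apart, with KO 3.58-fold below wt (adjusted p = 2.35e-05), E518K 1.77-fold below wt (adjusted p = 0.00224) and E518K 2.03-fold above KO (adjusted p = 3.29e-04).

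Scd2, a stearoyl-CoA desaturase like Scd1, had the highest count of the list in E518K and wt. It had 990 and 981 CPM in E518K, 662 and 633 CPM in KO and 1496 and 1309 CPM in wt. In KO, Fasn was higher, at 683 and 688 CPM. Per length, Scd2 was the highest in all groups, at 468 and 480 TPM, a per-length scale, in E518K, 343 and 330 TPM in KO and 724 and 684 TPM in wt, as deposited by the authors per gene span. Fads1 and Fads2 are desaturases of polyunsaturated fatty acids. Fads1 had 95.8 and 83.7 CPM in E518K, 68.8 and 71.0 CPM in KO and 152 and 123 CPM in wt. Fads2 had 62.8 and 55.7 CPM in E518K, 42.0 and 41.5 CPM in KO and 87.1 and 82.4 CPM in wt. The log2 fold changes for KO against wt were -1.12 ± 0.07 for Scd2 (adjusted p = 5.95e-05), -0.98 ± 0.11 for Fads1 (adjusted p = 4.40e-04) and -1.02 ± 0.08 for Fads2 (adjusted p = 9.90e-05). For E518K against wt they were -0.51 ± 0.07, -0.62 ± 0.11 and -0.52 ± 0.08 in the same order of genes, with adjusted p of 0.00518, 0.0104 and 0.00617, and of 0.0674, 0.110 and 0.0598 without E518K clone 15. For E518K against KO, Fads1 lost its call (0.36 ± 0.11, adjusted p = 0.0383) when any single E518K or KO library was left out (adjusted p of 0.0582 to 0.222).

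Fasn, the synthase that builds palmitate, had 684 and 694 CPM in E518K, 683 and 688 CPM in KO and 636 and 635 CPM in wt. Its differences were small, at 0.12 ± 0.05 for E518K against wt (adjusted p = 0.142) and 0.11 ± 0.05 for KO against wt (adjusted p = 0.107). Acly, which makes cytosolic acetyl-CoA from citrate, had 672 and 669 CPM in E518K, 631 and 619 CPM in KO and 782 and 665 CPM in wt, and was not called in any comparison. For KO against wt it was near the threshold, at -0.21 ± 0.08 (adjusted p = 0.0553). It was called lower with upper-quartile scaling (0.0164), without the low-count filter (0.0437) and among genes that overlap no other gene (0.0467). RLE factors, DESeq2 and limma did not call it. Without wt clone 16, which left a single wt library, Acly was at -0.33 for KO and -0.22 for E518K against wt. Without wt clone 12 it was at 0.014 for E518K against wt. Acaca and Acacb, the carboxylases that make malonyl-CoA, and Elovl6, which lengthens palmitate, were not called in any comparison of the main tests. Without wt clone 16, Elovl6 was at 0.45 for KO and 0.43 for E518K against wt. Without wt clone 12 it was at -0.0048 for E518K against wt. With only the 4 libraries compared, Acacb was called higher in E518K than in KO (0.24, adjusted p = 0.0404). Acacb had the smallest difference of the branch between KO and wt, at 0.02 ± 0.10 (adjusted p = 0.885), with 37.6 and 44.6 CPM in E518K, 34.8 and 34.9 CPM in KO and 34.9 and 33.98 CPM in wt.

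Me1, the malic enzyme that supplies NADPH, was the fatty acid gene with E518K below both other groups, at 65.7 and 65.3 CPM in E518K, 83.0 and 87.9 CPM in KO and 81.8 and 77.0 CPM in wt. Its log2 fold changes were -0.28 ± 0.07 for E518K against wt (adjusted p = 0.0271) and -0.38 ± 0.07 for E518K against KO (adjusted p = 0.00402). The call against wt was lost when any single E518K or KO library was left out (adjusted p of 0.0889 to 0.147), and that against KO without KO library 3 (0.0669). Srebf1 had 78.9 and 77.8 CPM in E518K, 69.0 and 69.4 CPM in KO and 114 and 87.7 CPM in wt. It fell in KO against wt by 0.54 ± 0.12 on the log2 scale (adjusted p = 0.00610). In E518K it was not called against wt (-0.36 ± 0.12, adjusted p = 0.0607) or KO (0.18 ± 0.12, adjusted p = 0.251). DESeq2 (adjusted p = 0.0300), upper-quartile scaling (0.0322) and limma on TPM (0.0482 and 0.0417) did call E518K below wt. RLE factors, no low-count filter and only the 4 libraries compared did not. With only those 4, E518K was called above KO (0.00981).

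Acss2, which activates acetate, was called higher in KO than in wt, at 0.35 ± 0.10 (adjusted p = 0.0181, and 0.0516 to 0.1045 without E518K clone 15, KO library 1 or KO library 3), but its counts cannot be told apart from those of Gss. The span of Acss2 overlaps Gss, on the opposite strand, by 22544 bases, and the counts cover whole spans with no strand use stated. Gss counts came to 86.6% and 86.5% of Acss2 counts in E518K, 86.3% and 87.0% in KO and 75.3% and 84.5% in wt. Gss was itself called, 0.40 above wt in E518K (adjusted p = 0.00794, and 0.0678 without clone 15) and 0.47 above wt in KO (adjusted p = 0.00100). The remainder after subtracting Gss was 1312 and 1340 counts in E518K, 1542 and 1412 counts in KO and 2218 and 1159 counts in wt, and the groups overlapped. All raw Gss counts were subtracted, including any from outside the span of Acss2. The remainder is therefore not a measure of Acss2 alone.

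The spans of 4 further genes overlap a neighbour, Fdft1 with Ctsb by 774 bases, Cyp51 with Akap9 by 166, Tm7sf2 with Vps51 by 532 and Srebf1 with Rai1 by 109. Akap9 and Rai1 rose in KO against wt, by 0.89 (adjusted p = 0.00278) and 0.64 (adjusted p = 0.00445) on the log2 scale, while Cyp51 and Srebf1 fell. For Tm7sf2 the length behind the authors' TPM was 2.59 times its GENCODE span of 5553 bases, so its counts come from a wider region. Overlaps of that wider region were not checked. The other 29 genes overlap none of the other 19556 symbols placed at 1 GENCODE gene, and entries not placed were not checked. Among these 29 genes the KO against wt medians were -0.80 in the sterol branch and -0.12 in the fatty acid branch.

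**Figure D3:**
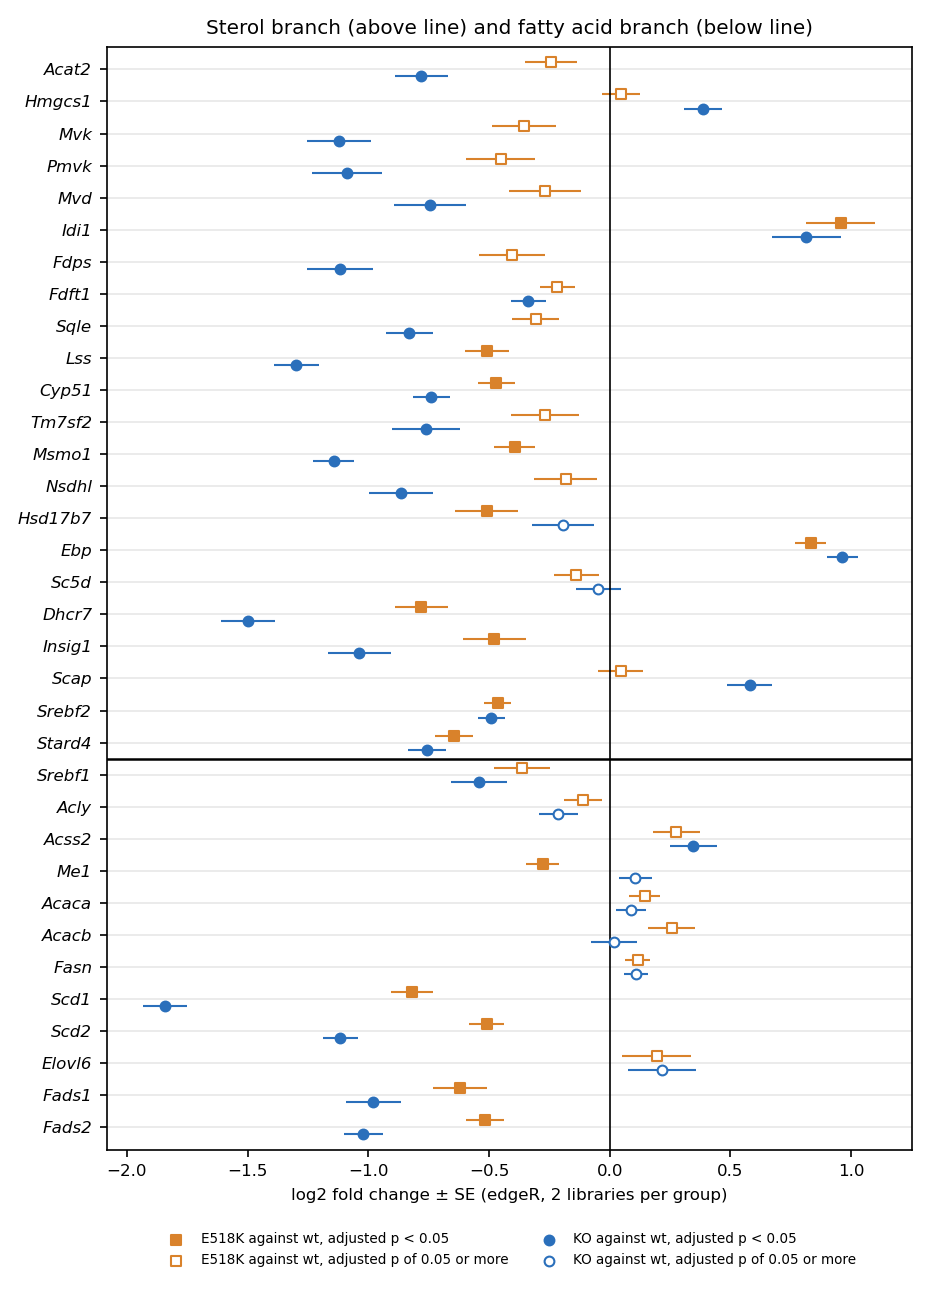
Log2 fold change of each of the 34 genes for E518K against wt and KO against wt (points, filled where the adjusted p is under 0.05) with the standard error (bars), genes in pathway order. Most sterol genes and all 4 desaturases lie below 0 for both, and the 4 desaturases lie closer to 0 for E518K than for KO.

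Of the prenyl and remaining sterol genes listed beside the 34, 12 were tested, of which 4 were higher and 5 lower in KO than in wt, beside 27.4% and 29.7% of all tested genes. Lbr, a nuclear envelope protein with sterol reductase activity, fell in both E518K (-0.37, adjusted p = 0.00647, and 0.0678 without clone 15) and KO (-0.48, adjusted p = 5.52e-04). The protein prenyltransferase subunits Fntb and Pggt1b rose in KO, by 0.54 (adjusted p = 2.62e-04) and 0.90 (adjusted p = 7.51e-04). In E518K against wt, Fntb also rose, by 0.61 (adjusted p = 0.00145), and Pggt1b was not called (0.33, adjusted p = 0.0875).

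Of 17 genes of sterol sensing, transport and efflux, 5 were higher and 3 lower in KO than in wt, and 2 were higher and 2 lower in E518K than in wt. These counts were near or below the shares of all tested genes (27.4% higher and 29.7% lower in KO, 11.3% higher and 12.5% lower in E518K). Abca1, the exporter of cellular cholesterol and a known target of miR-33 in mice, had 13.5 and 13.4 CPM in E518K, 32.7 and 33.97 CPM in KO and 3.77 and 4.95 CPM in wt. The groups were widely apart, with log2 fold changes of 1.63 for E518K against wt (adjusted p = 0.00127) and 2.94 for KO against wt (adjusted p = 2.40e-05). Soat1, which esterifies cholesterol for storage, fell by 1.40 in E518K (adjusted p = 0.00760, and 0.0922 without clone 15) and by 1.39 in KO (adjusted p = 0.00193) on the log2 scale. Erlin1, an endoplasmic reticulum protein of protein degradation, rose by 0.47 in E518K (adjusted p = 0.00624, and 0.0565 without clone 15) and by 1.40 in KO (adjusted p = 2.73e-05). Mylip, a ubiquitin ligase for lipoprotein receptors, rose in KO by 0.85 against wt (adjusted p = 0.00245).

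Of 22 genes of fatty acid elongation, activation and glycerolipid synthesis, 3 were higher and 12 lower in KO than in wt (median log2 fold change -0.37), and 2 were higher and 7 lower in E518K than in wt (median -0.26). Of all tested genes, 27.4% were higher and 29.7% lower in KO, and 11.3% were higher and 12.5% lower in E518K. Mid1ip1, a protein that helps acetyl-CoA carboxylase form polymers, had 8.00 and 6.58 CPM in E518K, 1.32 and 1.61 CPM in KO and 10.6 and 16.6 CPM in wt. The KO libraries were lowest and the wt libraries highest, with log2 fold changes of -0.90 for E518K against wt (adjusted p = 0.0322) and -3.22 for KO against wt (adjusted p = 1.09e-04). The E518K call was lost when any single E518K or KO library was left out (adjusted p of 0.0602 to 0.2105). Of the acyl-CoA synthetases, which activate fatty acids, Acsl3 fell in KO by 0.79 on the log2 scale (adjusted p = 1.08e-04) and Acsl5 rose by 2.45 (adjusted p = 4.98e-05). For E518K against wt, Acsl3 was at -0.37 (adjusted p = 0.00907) and Acsl5 at 0.78 (adjusted p = 0.013). Without clone 8 and clone 15, that value of Acsl3 was -0.33 and -0.39. Acsl5 was not called there with limma on TPM (0.0622 and 0.0565) or with only the 4 libraries compared (0.0510). Lpin1, a phosphatidate phosphatase of glycerolipid synthesis, rose in KO by 1.65 (adjusted p = 1.22e-05) and differed from wt by 0.07 in E518K (adjusted p = 0.469).

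**Figure D4:**
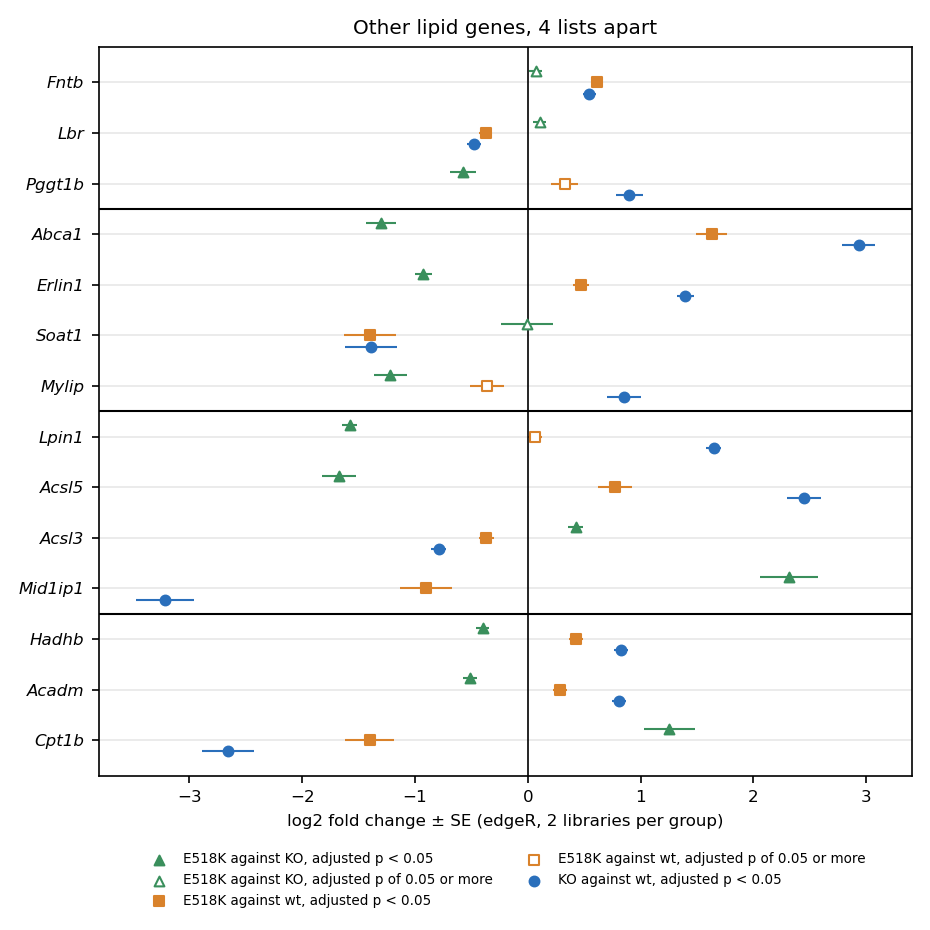
Log2 fold change (points, filled where the adjusted p is under 0.05) with the standard error (bars) of 3 or 4 genes from each further list of lipid genes, chosen by the smallest p in KO against wt. Abca1, Acsl5 and Lpin1 lie above 0 and Mid1ip1 and Cpt1b below 0 for KO against wt.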

How the data were processed

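Poly(A)-selected RNA was sequenced in paired 100-base reads on a BGISEQ-500, per the labels' protocols. The submitters' processing notes name STAR, bedtools and GRCm38.p6, without versions. The deposited table holds raw counts per gene and TPM. For 98.5% of 13566 genes the length behind the authors' TPM lay within 5% of the GENCODE M21 gene span, so counts take in introns and, with no strand use stated, overlapping genes. CPM used TMM factors. Tests were edgeR 4.0.16 quasi-likelihood F tests in R 4.3.3 on all 6 libraries (3 residual degrees of freedom, minimum count 10, Benjamini-Hochberg over 16498 genes, threshold 0.05), checked on simulated data. Alternatives included DESeq2 1.42.0 and limma 3.58.1. Genes, lists and tests were chosen with earlier results of these data known. The genes with the largest and smallest changes and the regulators have values per library, others were added after their values were seen, and of each further list the 4 genes with the smallest p in KO against wt were named, except 2 genes in all that are not reported here. In bulk RNA, fewer cells of a type and less RNA per cell cannot be told apart.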

Additional observations from a re-analysis of the deposited data

How the results depend on the processing

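Each of the 34 genes was tested again under 15 alternatives per comparison (14 for the 5 genes that overlap a neighbour). For KO against wt, the 16 sterol and 5 fatty acid genes lower in KO stayed within 1.5 times these counts under all 15, and the calls lost were those of Fdft1 and Acss2. For E518K against wt, the 8 sterol genes lower in E518K were 5 with only the 4 libraries compared, 5 with the KO libraries summed, and 2 to 17 when each library was left out. The 5 fatty acid genes were 1 to 7 when each library was left out. Idi1, Ebp, Srebf2, Stard4 and Scd1 kept their calls under every alternative. For E518K against KO, the 13 sterol genes higher in E518K were 8 with the KO libraries summed and 6 to 13 when each library was left out. Mvk, Sqle, Lss, Msmo1, Dhcr7, Scap, Scd1, Scd2 and Fads2 kept these calls throughout. Mvd, Cyp51, Tm7sf2 and Fads1 lost theirs with limma on TPM, where all libraries were kept (adjusted p of 0.0595 to 0.09455). Where a library left out leaves 1 in its group, that one is assumed to vary like the others. The main tests estimated spread from all 6 libraries. The KO pair, whose spread may be technical, thus entered the standard errors of E518K against wt. With only the 4 libraries compared, Msmo1, Hsd17b7, Insig1 and Me1 lost their calls for E518K against wt. All 4 standard errors were then larger. For Msmo1 it was 0.101 instead of 0.084, at log2 fold changes of -0.384 and -0.394 in that order. The part of this shared spread in the losses was not tested.

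Of 1515 values, 1354 kept direction and side of the threshold, 85 lost and 51 gained a call, and 25 reversed, none of them called. For KO against wt these were Acacb with upper-quartile factors (-0.037) and when each library was left out (-0.0054 to 0.036), and Sc5d with limma (0.00041 and 0.00044 at pseudocounts of 1 and 0.1) and when each library was left out (-0.13 to 0.028). For E518K against wt they were Hmgcs1 with upper-quartile factors (-0.0023) and limma (-0.0132 and -0.0133), Scap with limma (-0.0104 and -0.0119), and, when each library was left out, Hmgcs1 (-0.044 to 0.15), Scap (-0.070 to 0.18), Nsdhl (-0.36 to 0.022), Acly (-0.22 to 0.0137) and Elovl6 (-0.0048 to 0.43). For E518K against KO they were Srebf2 (-0.080 and -0.083), Acly (-0.0070 and -0.0071), Acaca (-0.039 and -0.051) and Fasn (-0.1015 and -0.102) with limma, and, when each library was left out, Elovl6 (-0.13 to 0.10) and Idi1 (-0.093 to 0.36). Over all genes, 47.5% of the calls for E518K against wt were upward (37.5% under upper-quartile scaling, 26.8% and 28.3% in limma) and 52.7% of those for E518K against KO (40.7% and 42.3% in limma). The calls for E518K against wt numbered 3917 in all, and 1999 with only the 4 libraries compared, 1909 with the KO libraries summed, and 644 to 6987 when each library was left out. Those for E518K against KO numbered 6902, and 3267 with the KO libraries summed. No paired analysis was possible because the titles share no replicate number between groups. The named genes of the further lists, Gss, Akap9 and Rai1 were run under the same alternatives after the data were seen, and no call of theirs for KO against wt was lost.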

Other observations

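Genes of fatty acid oxidation, the breakdown route opposite to the 34 synthesis genes, had calls in both directions. Of 17 tested, 7 were higher and 5 lower in KO than in wt (median log2 fold change 0.09), beside 27.4% and 29.7% of all tested genes. In E518K against wt, 4 were higher and 4 lower (median -0.09), beside 11.3% and 12.5%. Hadhb and Acadm, enzymes of the mitochondrial cycle, rose in KO by 0.83 ± 0.06 on the log2 scale (adjusted p = 8.55e-05, edgeR) and 0.81 ± 0.06 (adjusted p = 9.44e-05). In E518K against wt they rose by 0.43 ± 0.06 (adjusted p = 0.0052) and 0.29 ± 0.06 (adjusted p = 0.0184). With only the 4 libraries compared, Acadm was not called there (0.0641). Cpt1b, a carnitine transferase that admits fatty acids to mitochondria, fell in both groups against wt, with log2 fold changes of -1.40 ± 0.22 in E518K (adjusted p = 0.00600, and 0.0534 and 0.0658 without clone 8 and clone 15) and -2.66 ± 0.23 in KO (adjusted p = 1.36e-04).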
